A study of Mus musculus with 10 samples.

Results

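The transcript levels of the jejunum, the middle stretch of the small intestine, were compared with those of the ileum, its last stretch, in aged mice. The comparison rests on 4 of the 10 arrays of the study: the control and the yogurt pool of each segment. The mice were males of the outbred ICR stock, kept singly under specific-pathogen-free conditions. From 8 months of age they ate AIN-93, a purified rodent diet, either plain (control) or with LB81 yogurt at 1 to 2% (yogurt), and tissues were taken at 28 months. Equal amounts of RNA from 9 control or 10 yogurt mice were pooled for each tissue, and 100 ng of each pool went to 1 Affymetrix mouse expression array. The other 6 arrays, which entered the fit for its error, hold the same pools' distal colon, liver and spleen. Both segments came from the same mice, so each diet forms a pair. Where several probe sets carried only that gene's symbol, the one brightest on average across the 10 arrays stood for the gene.

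Values are the deposited log2 expression values, on which 1 unit is a factor of 2. Pairs of values below are in the order control pool, yogurt pool. A gene was called when limma's Benjamini-Hochberg adjusted p was under 0.05 and the segments differed at least 2-fold. Levels under an array's 50th percentile, close to 5.48 on these 4 arrays, cannot be ordered and were raised to that value, the floor, before the fit. A fold with an array of the dimmer segment at the floor is given as "at least". Because each pool averaged its mice before measurement, the p-values measure how far a gene's diet ratio varied over tissues, not the spread between mice, and a gene held at the floor has an SE that is too small. An exact permutation test of 2 arrays against 2 that ignores the pairing cannot give a two-sided p below 0.333, and one within the pairs has fewer arrangements still. Levels of different genes are not comparable on this array.

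The small intestine divides its work along its length. Enterocytes of the proximal part carry most of the machinery for sugars, fat, iron, calcium and folate, while the distal part recovers bile acids and vitamin B12 and is known for the hormones neurotensin, glucagon-like peptide and peptide YY. GATA4, a zinc finger transcription factor, is known to be required in the proximal epithelium, where it holds down ileal genes. Bile acids taken up by the ileal enterocyte activate the nuclear receptor FXR, which turns on Fgf15, a hormone that lowers bile acid synthesis in the liver. The genes of the Hox clusters mark position along the body axis, mainly in the mesenchyme of the gut.

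Of 12352 genes tested, 309 were called higher in jejunum (2.5%) and 366 higher in ileum (2.96%). Of these, 107 and 88 differed at least 4-fold. Ileum was at the floor for 61 of the 309, and jejunum for 50 of the 366. No called gene had arrays of one segment that overlapped those of the other, and 581 of the 675 called genes differed at least 2-fold in both diets. The genes were called on these same 4 arrays, so the call itself favours both counts, and they are no separate support. Without the fold limit, 2521 genes (20.4%) passed the adjusted p in favour of jejunum and 2728 (22.1%) in favour of ileum, so many passing differences were small. The median difference of all genes tested was 0.0001 on the log2 scale, and the median SE was 0.089. Calls counted in the gene lists below stand against the shares of 2.5% in jejunum and 2.96% in ileum over all genes.

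**Figure D1:**
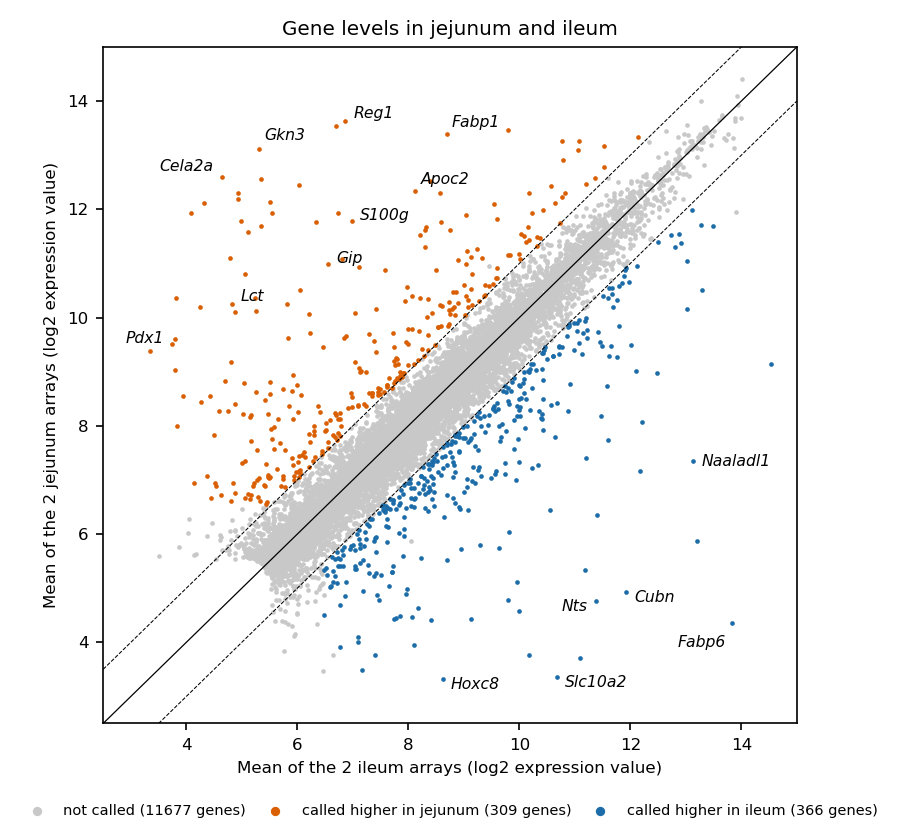
Each point is 1 of the 12352 genes tested, at the mean of its 2 ileum arrays (x axis) and its 2 jejunum arrays (y axis), in log2 expression values as deposited, before the floor. The solid line marks equal levels and the dashed lines a 2-fold difference; 309 genes called higher in jejunum lie above and 366 called higher in ileum lie below. Grey points outside the dashed lines near the lower left are genes whose difference shrank below 2-fold once values under the floor were raised.

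Array medians lay between 5.42 and 5.5 over the 10 arrays. The Spearman correlation over probe sets was 0.994 between the jejunum pools and 0.994 between the ileum pools, against 0.977 to 0.978 between the segments. The log2 ratio of 3' over 5' probe sets, a sign of RNA quality, was 0.17 and 0.21 for Gapdh in jejunum and 0.050 and 0.077 in ileum, and for actin 0.97 and 1.0 against 0.67 and 0.67. The 5' ends were thus relatively weaker in jejunum, and the part of this in the results was not tested. Hoxb13 and Hoxd13, which mark the hindgut, stayed at the floor in both segments, with Hoxd13 at 4.19 and 4.15 in jejunum, 3.91 and 3.88 in ileum and 10.79 and 10.55 in distal colon.

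The jejunum arrays also carried transcripts of genes listed as markers of stomach and pancreas. Of 13 stomach genes tested, 10 were called higher in jejunum and none in ileum. Of 23 exocrine pancreas genes, 18 were called higher in jejunum and none in ileum. The summed level of the stomach list was 15.22 and 14.93 in jejunum against 10.32 and 10.43 in ileum. That of the pancreas list was 15.5 and 16.82 against 13.59 and 13.64. In distal colon the pancreas list summed to 15.16 and 15.13, so a high sum was not particular to jejunum. A few bright members can carry such a sum. Pancreatic enzymes among the largest jejunal differences were not high in distal colon, with Cela2a at 4.65 and 4.73, Cpa1 at 4.84 and 4.77 and Cpb1 at 3.96 and 3.96. The parietal and chief cell genes Atp4a, Cblif, Lipf and Pga5 were at the floor on all 4 arrays. Ptf1a, which drives the acinar fate, measured 4.47 and 5.71 in jejunum and 4.01 and 3.95 in ileum, above the floor on the jejunum yogurt array alone. Outside the stomach list and the pancreas list, which holds the islet genes, 281 of the calls were in jejunum and 366 in ileum. This count was chosen after the data were seen. It only leaves the listed genes out of the same calls, without a new fit, so it tests nothing about the other genes. Whether the pieces taken reached duodenum, stomach or pancreas cannot be told from these arrays. The part of such tissue in any other jejunal difference was not tested.

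Transcription factors that pattern the gut or serve its epithelium were called in both directions. Among 39 tested, 6 were called higher in jejunum and 5 in ileum, and the median difference was -0.02. Gata4 measured 8.52 and 8.67 in jejunum and 5.45 and 5.58 in ileum, a difference of 3.07 (SE 0.082, limma adjusted p 2.76e-08), or at least 8.37-fold. Its ileal arrays lay at or just above the floor. Zfpm1, the GATA cofactor FOG1, ran the same way with 8.68 and 8.82 in jejunum and 6.06 and 5.94 in ileum, which is 6.73-fold. A second probe set of Zfpm1 gave a difference of only 0.68. Gata6 and Gata5 did not pass the fold limit: Gata6 was 1.56-fold higher in jejunum and Gata5 1.88-fold higher in ileum.

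Onecut2, a homeobox factor of proximal endoderm, measured 9.6 and 9.62 in jejunum and 3.7 and 3.9 in ileum, which is at least 17.5-fold. Pdx1, the homeobox factor of duodenum and pancreas, measured 9.55 and 9.46 in jejunum and 3.92 and 3.57 in ileum and was at least 16.3-fold higher in jejunum. Its probe sets ranged from 1.0 to 4.02 in the difference. Duodenum, pancreas and distal stomach also make Pdx1, so tissue from these organs and jejunal epithelium cannot be told apart as its source. Nr1i3, the xenobiotic receptor CAR, measured 8.45 and 7.99 in jejunum and 5.52 and 5.42 in ileum, at least 6.56-fold higher in jejunum (limma adjusted p 9.81e-07).

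On the ileal side, Osr2, a zinc finger factor, went from 3.93 and 3.97 in jejunum to 8.28 and 7.93 in ileum, at least 6.18-fold. Nr1h4, which encodes FXR, was 4.58-fold higher in ileum, and Tfcp2l1, a grainyhead-like factor, 4.14-fold. Maf was 2.31-fold higher in ileum, with another probe set at -0.49. The caudal factors that specify intestine differed less: Cdx1 was 1.65-fold and Cdx2 1.8-fold higher in ileum, neither called. Hnf4a and Hnf4g, the nuclear receptors of enterocyte identity, were 1.3-fold higher in ileum and 1.36-fold higher in jejunum, and the Hnf4g arrays overlapped. The 2 remaining calls were close to the limit: Meis2 (2.13-fold higher in jejunum) fell to 0.98 on the log2 scale without the jejunum control pool, and Meis1 (2.12-fold higher in ileum) to -0.97 without that pool and -0.99 without the ileum yogurt pool.

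Hox genes were higher in ileum wherever they were called. Of 31 on the array, 16 lay at the floor on all 4 arrays and 15 were tested, of which 6 were called higher in ileum and none in jejunum, with a median difference of -0.68. Hoxc8 measured 3.32 and 3.33 in jejunum and 8.53 and 8.7 in ileum, which is at least 8.81-fold (limma adjusted p 2.76e-08). It was back at 3.32 and 3.15 in distal colon. Hoxb6 measured 4.46 and 4.51 in jejunum and 7.68 and 8.03 in ileum, Hoxb5 5.26 and 5.3 in jejunum and 7.36 and 7.48 in ileum and Hoxb9 5.3 and 5.26 in jejunum and 7.34 and 7.25 in ileum. These 3 lay under the floor on both jejunum arrays and above it on both ileum arrays. Hoxb3 was 3.57-fold and Hoxc4 at least 2.05-fold higher in ileum, and Hoxc4 lost its call without the jejunum control pool (-1.0, just under 2-fold) or the ileum control pool (-0.98). Hoxa5 overlapped between the segments at 8.39 and 8.57 in jejunum and 8.22 and 8.5 in ileum.

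**Figure D2:**
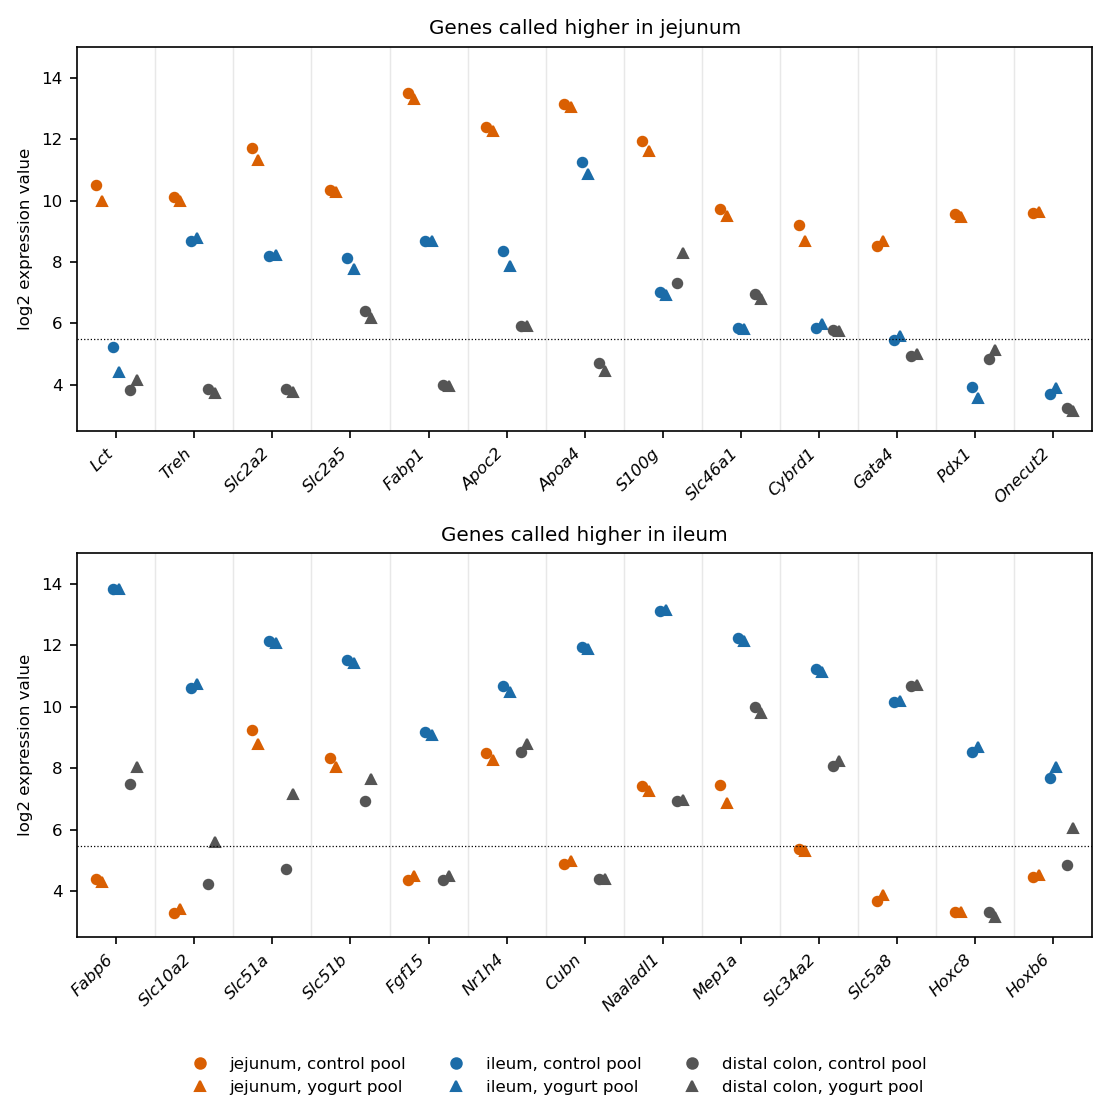
Log2 expression values on each of the 6 gut arrays for 13 genes called higher in jejunum (upper panel) and 13 called higher in ileum (lower panel); circles are control pools, triangles yogurt pools, and the dotted line is the mean floor of the 4 small intestinal arrays. In every gene shown both jejunum arrays lie on one side of both ileum arrays, and Fabp6 spans the widest gap, from 4.39 and 4.31 to 13.82 and 13.83.

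The list of enzymes of the brush border, the microvillous surface where digestion ends, split by substrate. Of 21 tested, 7 were called higher in jejunum and 8 in ileum. For sugars, 2 of 3 were called higher in jejunum and none in ileum. Lct, which encodes lactase, measured 10.5 and 9.98 in jejunum and 5.22 and 4.42 in ileum, at least 27.1-fold higher in jejunum. Treh, trehalase, measured 10.11 and 10.0 in jejunum and 8.7 and 8.79 in ileum, 2.48-fold. Mgam, which releases glucose from starch fragments, stood at 12.5 and 12.44 in jejunum and 12.34 and 12.37 in ileum and was not called.

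The peptidases ran mostly the other way, with 8 of 12 called higher in ileum and 1 in jejunum. Naaladl1, a dipeptidase, measured 7.42 and 7.27 in jejunum and 13.11 and 13.16 in ileum, 55.3-fold higher in ileum (limma adjusted p 9.84e-10). Mep1a, the alpha subunit of meprin, measured 7.44 and 6.87 in jejunum and 12.23 and 12.13 in ileum, 32.5-fold, while its partner Mep1b was 1.88-fold higher in ileum and not called. Xpnpep2 was 8.0-fold, Anpep 7.2-fold, Cndp2 3.91-fold, Dpp4 3.88-fold, Enpep 2.93-fold and Pepd 2.32-fold higher in ileum. These are aminopeptidases, dipeptidases and proline-specific peptidases that act late in protein digestion. Cndp2 and Pepd, though on the list and among the 8, are cytosolic and not enzymes of the brush border surface. The exception was Tmprss15, the enteropeptidase that activates trypsinogen, with 8.06 and 7.95 in jejunum and 3.73 and 3.92 in ileum, at least 5.75-fold higher in jejunum.

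Phosphatases and lipid hydrolases of the brush border were higher in jejunum in 4 of 6 cases and called in ileum in none. Alpi, intestinal alkaline phosphatase, measured 13.36 and 13.18 in jejunum and 11.07 and 11.1 in ileum. It was 4.55-fold higher in jejunum, with an SE of 0.44 and distal colon pools at 5.09 and 7.48, and the call was lost without the jejunum control pool (1.84) or the ileum yogurt pool (1.97). Akp3, a second alkaline phosphatase of the duodenum and jejunum, was at least 7.62-fold higher, and Enpp3 10.0-fold. Asah2, the neutral ceramidase that digests sphingolipid, was 3.95-fold higher in jejunum.

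Among genes of sugar transport and use, few were called. Of 19 tested, 4 were called higher in jejunum and 1 in ileum, with a median difference of 0.31. The 6 transporters had a median of -0.01. Slc2a2 (GLUT2), the basolateral exit for glucose and fructose, measured 11.72 and 11.34 in jejunum and 8.2 and 8.22 in ileum, 9.97-fold higher in jejunum. Slc2a5 (GLUT5), the fructose carrier, measured 10.36 and 10.27 in jejunum and 8.12 and 7.76 in ileum, 5.18-fold. Slc5a1 (SGLT1), the sodium-driven glucose carrier, stood at 12.38 and 12.21 in jejunum and 11.99 and 11.99 in ileum and was not called (adjusted p 0.234). Among enzymes, the gluconeogenic Fbp1 was 2.87-fold higher in jejunum, and the fructolytic Khk 1.92-fold, under the limit. G6pc, at 8.37 and 8.87 in jejunum and 7.92 and 7.0 in ileum, was called at 2.23-fold but dropped to 0.84 without the jejunum yogurt pool and 0.59 without the ileum yogurt pool. The single ileal call, Slc5a4b, was lost without the ileum control pool (-0.81), which leaves 0, and the ileal count was 2 without either yogurt pool.

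In fat absorption 6 of 35 genes tested were called higher in jejunum and 0 in ileum (1 without the ileum yogurt pool), and the median difference of the pathway was 0.12. Fabp1, the liver-type fatty acid-binding protein, measured 13.5 and 13.3 in jejunum and 8.69 and 8.69 in ileum, 26.2-fold higher in jejunum (limma adjusted p 1.25e-09). Fabp2, the intestinal type, stood at 13.25 and 13.02 in jejunum and 13.88 and 13.84 in ileum and was not called (adjusted p 0.153). Scarb1, a receptor for lipoprotein lipid, was 6.93-fold and Slc27a2, a fatty acid transporter and acyl-CoA synthetase, 3.17-fold higher in jejunum. Of the apolipoproteins, Apoc2, the cofactor of lipoprotein lipase, measured 12.41 and 12.28 in jejunum and 8.35 and 7.89 in ileum, 18.7-fold. Apoa4 was 4.12-fold and Apoc3 2.4-fold higher in jejunum. Apob and Apoa1, the structural proteins of the chylomicron, were 1.17-fold and 1.19-fold higher in ileum and not called, and another probe set of Apob gave 0.39, higher in jejunum. None of 13 triglyceride synthesis and droplet genes was called. Mttp, which loads lipid onto Apob, was 1.75-fold higher in jejunum.

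The stretches of 250 bases before the gene starts of 2 jejunal and 2 ileal genes are printed as examples of genes that lay far to opposite sides of the comparison. Sequences are from RefSeq, mouse build GRCm38.p6, 5′ to 3′ on the gene's strand. Capitals mark matches, on either strand, to AGATAA, which GATA factors are known to bind, to TTTATG of the caudal factors, to GTTAAT, a part of the HNF1 site, and to CAAAGTCC of HNF4. The motifs were picked after the data were seen. Lct lies at chr1:128328319-128328568 on the minus strand, Fabp1 at chr6:71199629-71199878 on the plus strand, Fabp6 at chr11:43601563-43601812 on the minus strand and Slc10a2 at chr8:5105288-5105537 on the minus strand.
Lct: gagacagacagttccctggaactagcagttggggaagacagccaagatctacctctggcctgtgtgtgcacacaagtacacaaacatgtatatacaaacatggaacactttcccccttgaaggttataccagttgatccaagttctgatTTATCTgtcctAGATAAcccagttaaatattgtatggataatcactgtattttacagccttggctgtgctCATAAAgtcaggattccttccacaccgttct
Fabp1: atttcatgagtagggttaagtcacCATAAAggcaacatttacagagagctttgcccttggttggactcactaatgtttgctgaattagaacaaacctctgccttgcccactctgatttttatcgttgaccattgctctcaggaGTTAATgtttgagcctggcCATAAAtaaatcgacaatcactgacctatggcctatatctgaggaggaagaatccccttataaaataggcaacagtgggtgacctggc
Fabp6: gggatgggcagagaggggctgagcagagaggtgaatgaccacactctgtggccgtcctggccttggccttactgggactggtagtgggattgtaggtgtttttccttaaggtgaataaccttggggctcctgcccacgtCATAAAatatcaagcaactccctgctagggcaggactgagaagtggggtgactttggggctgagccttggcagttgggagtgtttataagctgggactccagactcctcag
Slc10a2: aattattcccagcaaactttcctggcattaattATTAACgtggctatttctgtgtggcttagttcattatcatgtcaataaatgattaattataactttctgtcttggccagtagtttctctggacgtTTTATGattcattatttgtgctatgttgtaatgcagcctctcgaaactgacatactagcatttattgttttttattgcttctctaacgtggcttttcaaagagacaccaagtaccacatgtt
The Lct window held AGATAA on both strands, starting at positions -101 and -90 from the gene start, and TTTATG at -31. The Fabp1 window held TTTATG at -226 and -88 and GTTAAT at -107. The Fabp6 window held TTTATG at -111, and the Slc10a2 window GTTAAT at -217 and TTTATG at -122. The motifs did not separate the segments in these 4 windows. Windows of other genes with large differences were searched too. Those of Cyp3a11, Gip, Nts and Slc51a held at least 1 match. Those of Slc2a2, Adh6a, Gkn3, Reg1, S100g, Cubn and Slc34a2 held none, so the printed windows do not stand for all such genes. By gene, AGATAA was in at least 1 window for 15.9% of 246 called higher in jejunum and 12.5% of 271 called higher in ileum. Among tested genes it was in 7.6% of 9949. Counted by window and not by gene, it was in 9.99% of all 32851 windows, so this last share has another unit. GTTAAT was in 11.4%, 7.38%, 5.17% and 6.43%, TTTATG in 11.4%, 9.23%, 7.85% and 10.8%, and CAAAGTCC in 3.25%, 2.95%, 1.63% and 1.2%, in the same order. These shares describe letters in the windows and say nothing of binding.

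Bile acid handling was the list furthest towards ileum, with a median difference of -2.19 and 6 of 11 genes called higher in ileum. Fabp6, the cytosolic ileal bile acid-binding protein, measured 4.39 and 4.31 in jejunum and 13.82 and 13.83 in ileum, at least 326-fold higher in ileum (limma adjusted p 2.17e-09) and the largest called difference of all genes tested. Slc10a2 (ASBT), the apical sodium-driven bile acid carrier, measured 3.3 and 3.43 in jejunum and 10.61 and 10.75 in ileum, at least 36.8-fold. Both lay at the floor in jejunum. Slc51a and Slc51b, the subunits of the basolateral exporter, were expressed in jejunum too: Slc51a measured 9.23 and 8.78 in jejunum and 12.14 and 12.07 in ileum and Slc51b 8.34 and 8.04 in jejunum and 11.52 and 11.41 in ileum, 8.56-fold and 9.69-fold higher in ileum.

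Fgf15, the ileal hormone that signals to the liver, measured 4.37 and 4.48 in jejunum and 9.17 and 9.09 in ileum, at least 12.5-fold. Nr1h4 (FXR), which senses bile acids and drives Fgf15, measured 8.5 and 8.27 in jejunum and 10.66 and 10.49 in ileum. Nr0b2 (SHP), another FXR target, was 1.99-fold higher in ileum and missed the limit. 2 efflux pumps ran the other way: Abcc3 was 2.56-fold higher in jejunum and Abcc2 2.19-fold, the latter down to 0.87 and uncalled without the jejunum control pool, which leaves 1 jejunal call in the list. The distal colon pools lay apart in Slc10a2 (4.23 and 5.61) and Slc51a (4.72 and 7.15), and the SE of Slc51a, which takes in all tissues, was 0.4.

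Of 8 vitamin B12 genes tested, 2 were called higher in ileum and none in jejunum, and these 2 form the ileal receptor. Cubn, cubilin, which binds the intrinsic factor complex, measured 4.88 and 4.98 in jejunum and 11.96 and 11.88 in ileum, at least 86.9-fold higher in ileum (limma adjusted p 5.78e-10). Amn, amnionless, which anchors cubilin in the membrane, measured 9.85 and 9.47 in jejunum and 10.97 and 10.76 in ileum, 2.3-fold, and fell to -1.0, just under the limit, without the jejunum yogurt pool. Cubn was thus at the floor in jejunum where Amn was well above it. Tcn2, the carrier in blood, was 1.49-fold higher in ileum.

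Transport of amino acids and peptides leaned to ileum, with 6 of 19 called there and none in jejunum. Slc6a14, a carrier of neutral and basic amino acids, measured 4.21 and 4.63 in jejunum and 7.94 and 7.54 in ileum, at least 4.78-fold higher in ileum, and 10.0 and 9.96 in distal colon. Slc1a1, the glutamate carrier, measured 8.23 and 8.31 in jejunum and 10.31 and 10.39 in ileum, 4.23-fold. The others lay closer to the limit: Slc3a1 2.7-fold, Slc6a19 2.34-fold, Slc7a7 2.07-fold and the peptide carrier Slc15a1 (PEPT1) 2.02-fold. Without the jejunum yogurt pool Slc3a1 (-1.005), Slc6a19 (-0.999) and Slc7a7 (-0.94) lost the call. Slc3a1 (-1.09) and Slc7a7 (-0.96) also lost it without the ileum control pool, and Slc15a1 without the jejunum control pool (-0.96) or the ileum yogurt pool (-0.92). Slc3a1 stayed past the 2-fold limit in both of its refits, so its call was lost on the adjusted p. Of the apical carriers, 10 of 11 had the higher value in ileum.

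Of 26 genes of mineral uptake tested, 6 were called higher in jejunum and 3 in ileum. For iron, Cybrd1, the duodenal ferric reductase, measured 9.2 and 8.69 in jejunum and 5.85 and 6.0 in ileum, Slc11a2 (DMT1), the ferrous iron carrier, was 6.85-fold higher and Slc40a1, the exporter ferroportin, measured 11.98 and 11.8 in jejunum and 8.96 and 9.1 in ileum. All 3 were called higher in jejunum, as was the folate carrier Slc46a1, which is on the iron list because it also carries haem, and none of the 9 iron genes was called higher in ileum. S100g, the calcium-binding protein calbindin-D9k, a vitamin D target, measured 11.94 and 11.63 in jejunum and 7.03 and 6.92 in ileum, 28.0-fold higher in jejunum. Vdr, the vitamin D receptor, was 1.62-fold higher there and not called. Slc34a2, the intestinal phosphate carrier, measured 5.36 and 5.29 in jejunum and 11.22 and 11.14 in ileum, at least 52.1-fold higher in ileum. Trpm6, the magnesium channel, measured 5.74 and 5.7 in jejunum and 9.06 and 8.82 in ileum, 9.32-fold, although another of its probe sets gave -0.56. Slc30a1, the zinc exporter, was 2.57-fold higher in ileum, while Slc30a10, a manganese exporter of the same family, was 4.69-fold higher in jejunum.

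Genes of vitamin and retinoid handling were called in jejunum in 8 of 19 cases and in ileum in 2, with a median difference of 0.88. The 7 genes for water-soluble vitamins held 5 of the jejunal and both ileal calls, and the 12 retinoid genes 3 jejunal calls. Slc46a1, the proton-coupled folate carrier, measured 9.74 and 9.51 in jejunum and 5.84 and 5.82 in ileum, 13.9-fold higher in jejunum. Slc19a3, a thiamine carrier, measured 8.34 and 8.21 in jejunum and 4.56 and 4.63 in ileum, at least 6.94-fold, with a second probe set at 0.45. Rbp2, the retinol-binding protein of enterocytes, was 4.47-fold higher in jejunum. Slc5a6, which carries biotin and pantothenate, and Slc52a3, which carries riboflavin, were 3.44-fold and 3.43-fold higher in ileum.

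In xenobiotic metabolism 19 of 52 genes tested were called higher in jejunum and 5 in ileum, with a median difference of 0.42. The conjugating enzymes accounted for 11 of the 19, with none of their 20 called higher in ileum. Adh6a, an alcohol dehydrogenase, measured 12.06 and 11.8 in jejunum and 6.92 and 6.55 in ileum, 36.6-fold higher in jejunum. Ugt2a3, a glucuronosyltransferase, measured 10.16 and 10.04 in jejunum and 5.12 and 4.61 in ileum, at least 24.5-fold, and Gsta2, a glutathione transferase, 10.37 and 10.14 in jejunum and 5.94 and 5.69 in ileum, 21.8-fold. Cyp3a11, the main drug-oxidising cytochrome of the mouse gut, was called higher in jejunum with a difference of 3.74, and Cyp2b10, a target of CAR, with 2.2.

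Of 5 efflux pumps in the list, 2 were called higher in ileum and 1, Abcc2, in jejunum. Abcb1a, P-glycoprotein, measured 9.88 and 9.1 in jejunum and 12.15 and 11.88 in ileum, 5.73-fold higher in ileum, and Abcg2, the breast cancer resistance protein, 10.37 and 10.28 in jejunum and 11.86 and 11.67 in ileum, 2.72-fold. Cyp2c55 (5.26 and 4.7 in jejunum and 8.47 and 7.49 in ileum) and Cyp4b1 (8.6 and 8.41 in jejunum and 10.1 and 9.95 in ileum) were also called higher in ileum, but both differed between the distal colon pools. Without the ileum control pool 2 of the 5 ileal calls were left, and Cyp2c55 was at -1.79 and Cyp4b1 at -1.28. Cyp4b1 also lost its call on leaving out any of the other 3 arrays, with values from -1.79 to -1.26.

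Ion transport showed 4 jejunal and 8 ileal calls among 36 genes. Car2, cytosolic carbonic anhydrase, measured 10.92 and 10.95 in jejunum and 7.23 and 7.0 in ileum, 14.2-fold higher in jejunum, and Slc9a3 (NHE3), the apical sodium/proton exchanger, 8.86 and 9.11 in jejunum and 7.15 and 7.12 in ileum, 3.61-fold. The other jejunal calls, Fxyd3 (0.96 without the ileum yogurt pool) and Slc28a3 (0.76 without the ileum yogurt pool and 0.99 without the jejunum yogurt pool), were near the limit, so 2 were left without the ileum yogurt pool. Slc5a8, which carries short-chain fatty acids with sodium, measured 3.67 and 3.87 in jejunum and 10.16 and 10.2 in ileum, at least 26.1-fold higher in ileum, and 10.67 and 10.71 in distal colon. Clca4a, a calcium-activated chloride channel regulator, measured 9.04 and 8.9 in jejunum and 12.57 and 12.4 in ileum, 11.4-fold. Slc13a2, a citrate carrier, and the carbonic anhydrases Car1 and Car4 were 6.14-fold, at least 6.48-fold and 4.9-fold higher in ileum. Cldn8, a claudin of the tight junction typical of colon, was the 1 call among 19 junction genes, against 2.96% of all genes called higher in ileum. It measured 5.43 and 5.38 in jejunum and 7.64 and 7.81 in ileum, at least 4.75-fold higher in ileum.

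Cholesterol synthesis was higher in ileum in 19 of 20 genes tested, with 7 called and a median difference of -0.78. Sqle, squalene epoxidase, measured 9.28 and 9.31 in jejunum and 10.65 and 10.55 in ileum, 2.47-fold, and Cyp51, lanosterol demethylase, 8.7 and 8.88 in jejunum and 10.11 and 10.01 in ileum, 2.42-fold, with another probe set at -0.57. Hmgcs1, at the start of the pathway, was 1.87-fold higher in ileum and under the limit. Mylip, which sends the LDL receptor to degradation, was 2.52-fold higher in ileum, while Npc1l1, the cholesterol uptake protein, was 1.38-fold higher there.

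**Figure D3:**
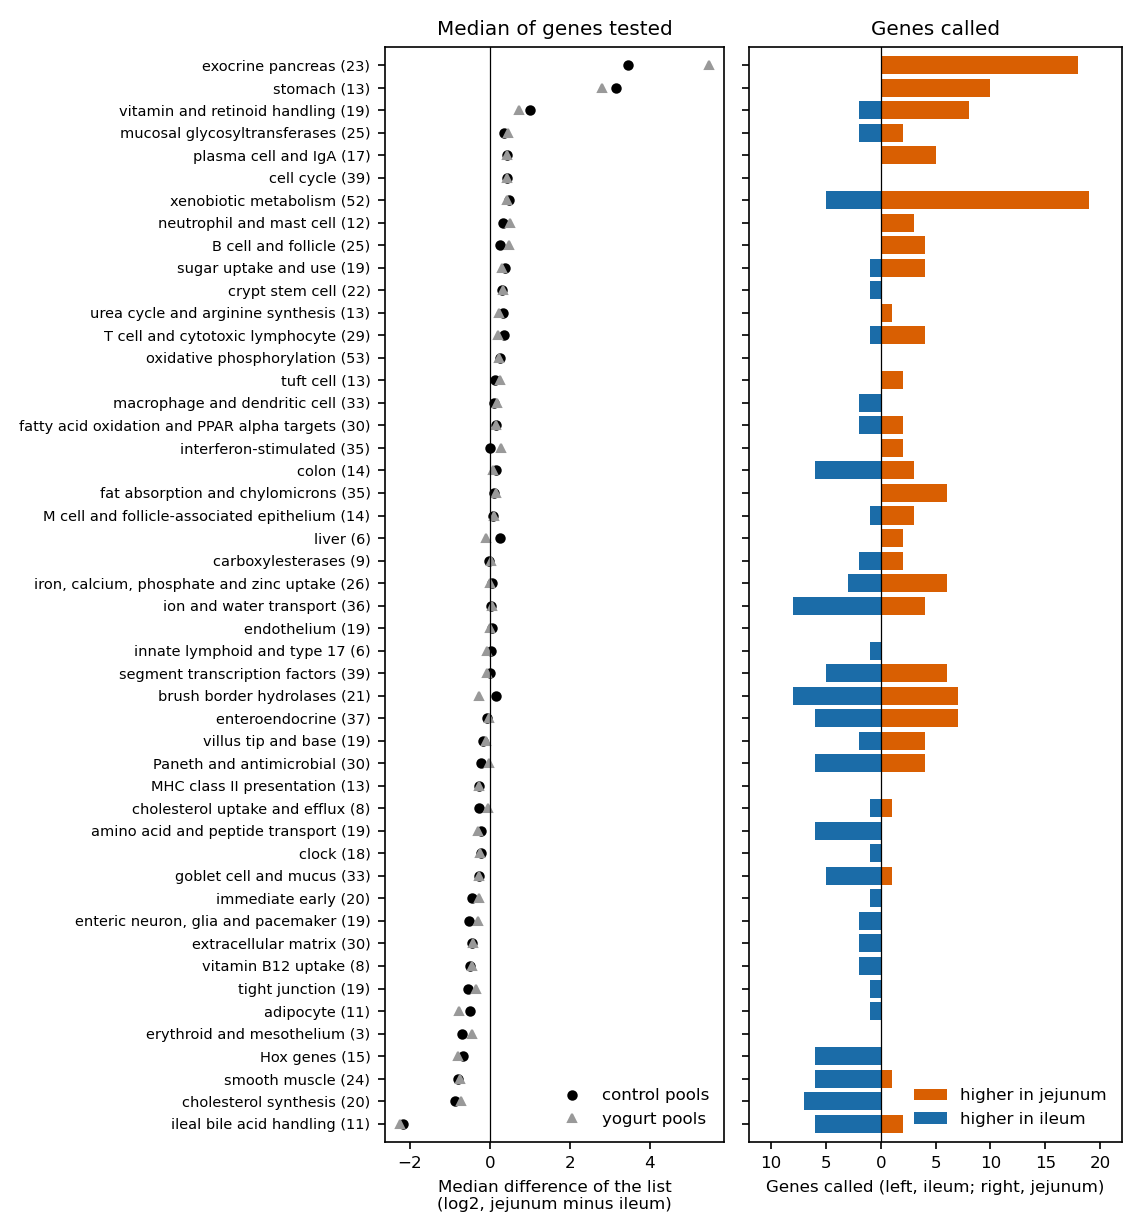
For each of 48 gene lists (genes tested in parentheses) the left panel gives the median log2 difference, jejunum minus ileum, in the control pools (circles) and the yogurt pools (triangles), and the right panel the number of genes called in each segment. The exocrine pancreas and stomach lists lie furthest to the right and ileal bile acid handling furthest to the left, with a median of -2.19 over both diets.

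Gut hormone genes were called in both directions. Of 37 enteroendocrine genes tested, 7 were called higher in jejunum and 6 in ileum. Gip, the incretin of K cells, measured 11.23 and 10.76 in jejunum and 6.53 and 6.55 in ileum, 21.9-fold higher in jejunum (limma adjusted p 4.08e-08). Cck, cholecystokinin, measured 9.22 and 8.81 in jejunum and 6.94 and 7.34 in ileum, 3.67-fold. Ghrl, ghrelin, measured 8.4 and 7.86 in jejunum and 5.66 and 5.63 in ileum, 5.6-fold. However, the stomach is its main source, and the jejunum arrays carried transcripts of the stomach list.

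Nts, neurotensin, measured 4.77 and 4.75 in jejunum and 11.39 and 11.36 in ileum, at least 59.6-fold higher in ileum. Gcg, the proglucagon gene from which L cells make glucagon-like peptides, measured 7.51 and 7.29 in jejunum and 11.11 and 11.31 in ileum, 14.0-fold. Pyy, peptide YY, measured 7.0 and 6.99 in jejunum and 10.02 and 9.87 in ileum, 7.76-fold. Insl5 (4.22 and 3.95 in jejunum and 7.07 and 7.11 in ileum), a hormone of colonic L cells, was higher still at 10.67 and 10.5 in distal colon, and Gal, galanin, was 2.85-fold higher in ileum. Ffar4, a receptor for long-chain fatty acids, was at least 2.23-fold higher in ileum.

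Other hormones were not called. Sst, somatostatin, overlapped between the segments at 9.22 and 8.78 in jejunum and 9.23 and 9.09 in ileum, Sct, secretin, stood at 10.6 and 10.27 in jejunum and 10.76 and 10.65 in ileum and Tac1, the precursor of substance P, at 8.59 and 8.62 in jejunum and 8.64 and 8.69 in ileum. Among genes shared by the lineage, Neurog3, the factor that commits cells to it, was at least 2.84-fold higher in jejunum, and Ddc, which makes serotonin from its precursor, 2.44-fold. Chgb and Tph1 were called at 2.02-fold and 2.14-fold, but Chgb fell to 0.94 without the jejunum control pool, and Tph1 to 0.85 without it and 0.96 without the ileum yogurt pool. Chga was 1.26-fold higher in jejunum and not called.

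**Figure D4:**
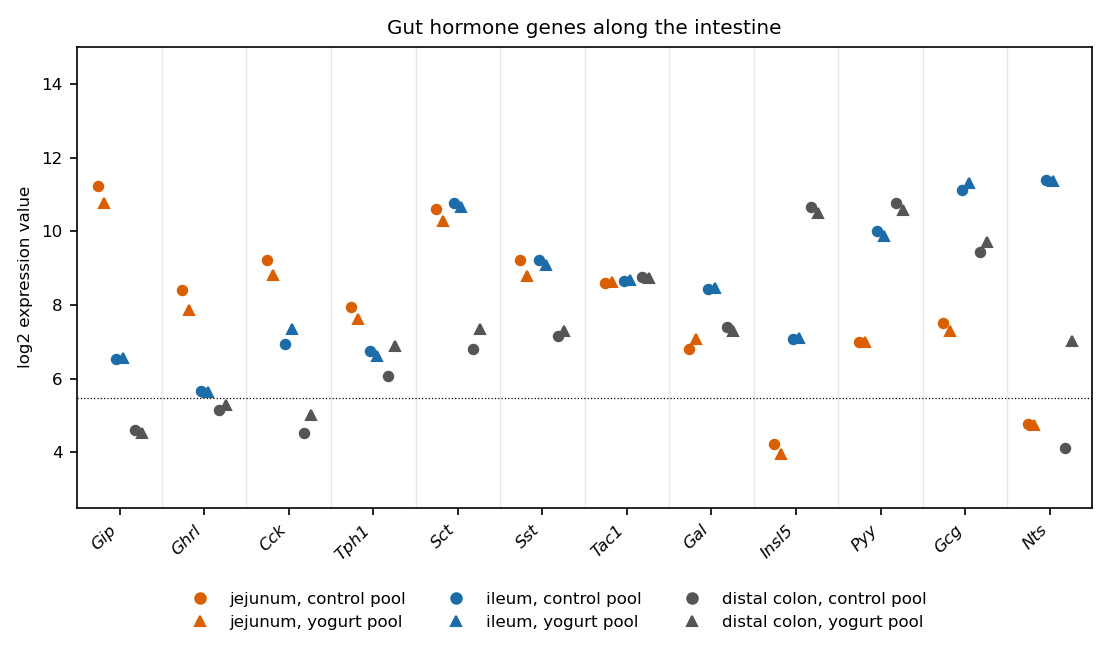
Log2 expression values of 12 gut hormone genes on the 6 gut arrays, with circles for control pools, triangles for yogurt pools and a dotted line at the mean floor of the 4 small intestinal arrays. Gip, Ghrl, Cck and Tph1 on the left are higher in jejunum, Gal, Insl5, Pyy, Gcg and Nts on the right are higher in ileum, and Sct, Sst and Tac1 lie together in both segments.

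Antimicrobial genes of the enterocyte went both ways. Of 30 genes of Paneth cells and epithelial defence tested, 4 were called higher in jejunum and 6 in ileum. Reg1, a C-type lectin of the crypt and pancreas, measured 13.61 and 13.65 in jejunum and 7.74 and 5.97 in ileum, 109.5-fold higher in jejunum. Reg2, which acinar cells also make, measured 7.67 and 10.68 in jejunum and 4.8 and 4.8 in ileum, so its yogurt pool stood well above its control pool. The other 2 jejunal calls were lost on leaving out single arrays: Reg3d went to 0.27 without the jejunum yogurt pool, 0.94 without the ileum yogurt pool and 1.39 without the ileum control pool, and Dmbt1 lost its call without any 1 of the 4 arrays, with values from 0.98 to 1.43. Without either yogurt pool 2 jejunal calls were left in the list.

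Saa1, serum amyloid A, which epithelium makes in response to attached bacteria, measured 3.55 and 3.87 in jejunum and 10.82 and 11.39 in ileum, at least 49.3-fold higher in ileum, with 12.81 and 12.85 in distal colon. Reg3a measured 8.1 and 8.75 in jejunum and 10.71 and 10.67 in ileum, 4.78-fold. Reg3g and Reg3b, bactericidal lectins, were lower on the control array of jejunum than on its yogurt array: Reg3g measured 11.12 and 12.26 in jejunum and 13.43 and 13.54 in ileum and Reg3b 11.25 and 12.64 in jejunum and 13.9 and 13.91 in ileum. Reg3b was not called (adjusted p 0.156), and Reg3g lost its call on leaving out any 1 of the 4 arrays, with values from -2.2 to -1.39. Most Paneth cell products were not called, with Lyz1, lysozyme, at 14.07 and 14.1 in jejunum and 13.89 and 13.95 in ileum. The exception was Defa31, an alpha-defensin, at 7.16 and 11.11 in jejunum and 14.53 and 14.53 in ileum, but its probe set can bind transcripts of the many related defensin genes, so which of them differed is uncertain.

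Genes of the goblet cell and mucus list were called higher in ileum in 5 of 33 cases and in jejunum in 1, against 2.96% and 2.5% of all genes tested. Guca2a, guanylin, measured 10.57 and 10.46 in jejunum and 13.38 and 13.22 in ileum, 6.9-fold higher in ileum. Muc2, the gel-forming mucin, measured 11.93 and 12.03 in jejunum and 13.12 and 13.1 in ileum, 2.19-fold, and Muc3, a membrane mucin, 11.49 and 11.27 in jejunum and 12.9 and 12.92 in ileum, 2.89-fold. Tff3 and Zg16, products of goblet cells, were 1.38-fold and 1.23-fold higher in ileum, and neither was called. In bulk tissue, fewer cells of a type and less RNA per cell cannot be told apart.

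Among lymphocyte genes, granzymes were higher in jejunum. Of 29 genes of T cells and cytotoxic lymphocytes tested, 4 were called there and 1 in ileum, against 2.5% and 2.96% of all genes tested. Gzma, granzyme A, measured 10.32 and 10.42 in jejunum and 7.92 and 8.52 in ileum, 4.45-fold higher in jejunum, and Gzmb, granzyme B, 8.09 and 8.42 in jejunum and 6.31 and 6.51 in ileum, 3.59-fold. Both granzymes are made by intraepithelial lymphocytes. Ccl5 was 2.72-fold and Klrd1 at least 2.14-fold higher in jejunum. None of the 13 genes of T cells in general was called, and Itgae, the integrin that holds these cells in the epithelium, was 1.61-fold higher in jejunum. The ileal call, Rgs1, was lost without the jejunum control pool (-0.83) or the ileum yogurt pool (-0.94).

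Plasma cell genes were called higher in jejunum in 5 of 17 cases and B cell and follicle genes in 4 of 25, with none called in ileum in either list. Mzb1, an endoplasmic reticulum protein of plasma cells, measured 10.41 and 10.65 in jejunum and 9.2 and 9.06 in ileum, 2.65-fold higher in jejunum, and Pou2af1, a coactivator of B cells, 9.4 and 9.63 in jejunum and 8.04 and 7.96 in ileum, 2.85-fold. Igha, the heavy chain of IgA, stood at 14.4 and 14.41 in jejunum and 13.99 and 14.02 in ileum and was not called. Without the jejunum yogurt pool 3 plasma cell calls were left, with Eaf2 at 0.97. Among the B cell calls, Rgs13, also on the tuft cell list, had a limma adjusted p of 0.0448 and spleen pools apart at 8.56 and 4.49. Its call was lost on leaving out any 1 of the 4 arrays, with values from 1.51 to 2.45. The summed level of the B cell list was 12.5 and 12.53 in jejunum against 11.89 and 11.86 in ileum. The follicle genes Cr2, Fcer2a and Cxcr5 and the B cell factor Pax5 lay at the floor on all 4 arrays. Mcpt1 and Mcpt2, proteases of mucosal mast cells, were at least 2.65-fold and at least 3.53-fold higher in jejunum, at the floor in ileum.

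Several lists shifted as a whole with few or no calls. Of 39 cell cycle genes, 38 had the higher value in jejunum and none was called, but 30 passed the adjusted p without the fold limit in favour of jejunum and 1 in favour of ileum, against 20.4% and 22.1% of all genes. Their median difference was 0.43, and Mcm7, a subunit of the replicative helicase, measured 10.63 and 10.62 in jejunum and 10.2 and 10.24 in ileum. All 53 genes of oxidative phosphorylation had the higher value in jejunum, and 41 passed the adjusted p there and 0 in ileum, with a median difference of 0.25. Of 22 crypt stem cell genes, 15 had the higher value in jejunum, with a median difference of 0.3. The adjusted p was passed by 11 in favour of jejunum and by 1 in favour of ileum. Lgr5, the stem cell receptor and the 1 call of this list, ran against it at 2.02-fold higher in ileum. It lost the call without the jejunum control pool (-0.91) or the ileum yogurt pool (-0.99). Olfm4, another crypt base gene, was 1.67-fold higher in jejunum.

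Muscle and matrix ran towards ileum. Of 24 smooth muscle genes, 23 had the higher value in ileum, with a median difference of -0.72. The adjusted p was passed in favour of ileum by 21 of them, against 22.1% of all genes. Of the 24, 1, Ckb, was called higher in jejunum, which fell to 0.99 without the ileum control pool, and 6 were called higher in ileum. Without the jejunum control pool 2 were, without the ileum yogurt pool 3 and without the jejunum yogurt pool 10. Acta2, smooth muscle actin, measured 11.92 and 12.04 in jejunum and 12.6 and 12.73 in ileum, 1.6-fold higher in ileum. Pgm5, a protein of muscle adhesion sites, measured 7.48 and 7.64 in jejunum and 9.17 and 9.33 in ileum, 3.22-fold. Of 30 matrix genes, 22 passed the adjusted p in favour of ileum and 2 in favour of jejunum, against 22.1% and 20.4% of all genes. Postn, periostin, measured 7.72 and 7.86 in jejunum and 9.69 and 9.65 in ileum, 3.69-fold. Kit, which pacemaker cells of the muscle wall carry, was 2.23-fold higher in ileum. The part of the amount of muscle wall in the other differences was not tested.

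Other genes stood out among the largest differences. Gkn3, a gastrokine of the stomach, measured 13.16 and 13.07 in jejunum and 5.18 and 5.43 in ileum and was the largest jejunal difference, at least 199-fold. Tff2, a trefoil peptide of mucous neck cells, measured 13.7 and 13.37 in jejunum and 6.62 and 6.76 in ileum, 115-fold. Of the other 13 genes with the largest jejunal differences, 11 encode secreted products of the pancreas or stomach (Cela2a, Prss2, 2210010C04Rik, a trypsin, Cpa1, Cpb1, Ctrb1, Ctrl, Cel, Pnliprp1, Rnase1 and Gkn2), and Cela2a, a pancreatic elastase, measured 11.94 and 13.24 in jejunum and 4.66 and 4.63 in ileum. The remaining 2 were Reg1 and 2310057J18Rik, and 2310057J18Rik measured 12.17 and 12.08 in jejunum and 4.38 and 4.26 in ileum with almost no difference between the diets.

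In ileum, Tmigd1, a cell adhesion protein of the epithelium, measured 6.16 and 5.59 in jejunum and 13.18 and 13.21 in ileum, 160.1-fold higher in ileum, with the distal colon pools apart at 6.3 and 9.37. Bcl2l15, a relative of the BCL2 family, measured 6.03 and 6.66 in jejunum and 11.44 and 11.36 in ileum, 33.2-fold. Mgat4c, a glycosyltransferase, was at least 22.8-fold, and Bex1, a gene of neural and endocrine cells, measured 5.22 and 5.01 in jejunum and 9.9 and 10.0 in ileum, at least 22.2-fold. The clock output gene Dbp measured 10.21 and 10.13 in jejunum and 12.99 and 13.07 in ileum, 7.27-fold higher in ileum, but its probe sets ranged from -2.86 to -0.11 and it was the 1 call among 18 clock genes. Car3, an enzyme of fat and muscle, measured 5.19 and 6.27 in jejunum and 8.75 and 10.52 in ileum, at least 13.5-fold higher in ileum, with probe sets from -3.75 to -1.29. It was the 1 call among 11 adipocyte genes, of which 10 had the higher value in ileum. Over all genes tested, 2.96% were called higher in ileum, which bears on the clock and the adipocyte count alike.

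The segment difference was of the same sign in both diets for each of the 675 called genes, which the call on these same arrays favours. Among all genes tested, 44 had segment differences that differed at least 2-fold between the diets, a description of single arrays. The largest was Defa31, whose jejunal level was 7.16 and 11.11 while its ileal level was 14.53 and 14.53. Reg2 (7.67 and 10.68 in jejunum and 4.8 and 4.8 in ileum), Cuzd1 (7.34 and 9.74 in jejunum and 4.37 and 4.5 in ileum), Pdia2 (7.26 and 9.6 in jejunum and 4.39 and 4.14 in ileum) and Gp2 (9.64 and 11.39 in jejunum and 6.18 and 5.92 in ileum) were higher in the yogurt than the control pool of jejunum, and pancreatic acinar cells make all 4. Ins2, insulin, measured 5.93 and 7.91 in jejunum and 6.17 and 6.15 in ileum, so its segments overlapped. The median difference of the pancreas list was 3.46 in the control pools and 5.46 in the yogurt pools, whereas that of the stomach list was 3.16 and 2.81.

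**Figure D5:**
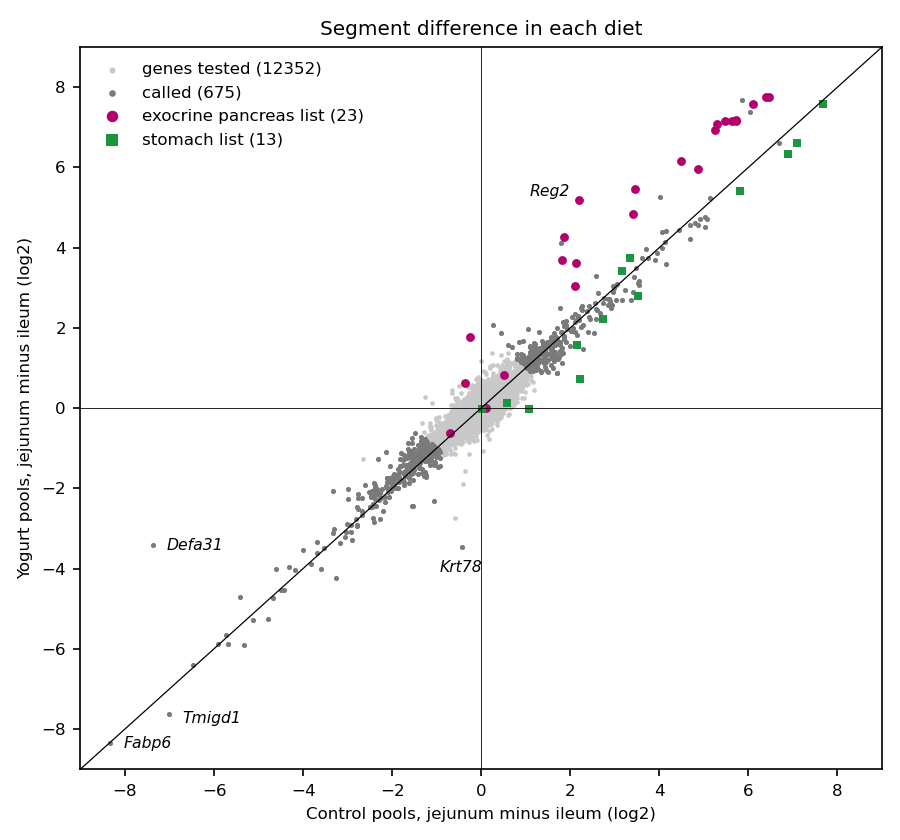
Each point is a gene at its jejunum minus ileum difference (log2, after the floor) in the control pools (x axis) and the yogurt pools (y axis); the line marks equal differences. Called genes lie along the line, the 23 exocrine pancreas genes mostly above it with medians of 3.46 and 5.46, and Defa31 and Krt78 apart from it.

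Krt78 and Pla2g4c, from the 8 genes whose segment difference varied most between the diets, differed between the ileum pools. Krt78, a keratin of stratified epithelium, measured 6.04 and 5.91 in jejunum and 6.47 and 9.38 in ileum and was called higher in ileum, but the call rests on the ileum yogurt pool: without it the difference was -0.45. It was also lost without the jejunum control pool (-2.34) or the jejunum yogurt pool (-1.56). Pla2g4c, a phospholipase, measured 4.44 and 7.28 in jejunum and 6.06 and 10.02 in ileum, overlapped between the segments and was not called (adjusted p 0.15).

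The level in distal colon, the next segment sampled along the gut, is given as a description. Of the 366 called higher in ileum, 122 were higher still in distal colon than in both segments, 169 lay between the segments and 75 lay below both. Slc5a8, Saa1, Insl5, Cldn8 and Tfcp2l1 (11.34 and 11.42 in distal colon) belong to the first kind, and Fabp6, Cubn and Fgf15 were far lower in distal colon than in ileum. Of the 309 called higher in jejunum, 23 were higher in distal colon than in both segments, 156 lay between and 130 below both. Car2 (12.76 and 12.74 in distal colon) is among the first, and Fabp1 (4.0 and 3.96), Slc2a2 (3.87 and 3.77) and Treh (3.86 and 3.73) were lower in distal colon than in either segment.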

How the data were processed

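The authors deposited 1 log2 value per probe set and array. Per the submitters' processing notes, MAS5 and affy were used, in no stated version or role, and the summary method and scaling are not given in the sources used here. Of 45101 probe sets, 64 were array controls, 34958 had 1 gene symbol in the platform annotation and 34754 of these were matched by gene number to RefSeq (GRCm38.p6). Probe sets with several symbols (932) or none (9211) were not used, which left 18194 genes. The suffixes x_at and s_at mark probe sets that related transcripts can bind. Nothing further was scaled. Depth has no meaning for arrays, and their number limits the precision.

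The floor was set at each array's 50th percentile. Genes above it on at least 2 of the 4 jejunum and ileum arrays were fitted with limma 3.58.1 in R 4.3.3 (lmFit, then eBayes with trend). The model held tissue and diet and took in the 10 arrays, which leaves 4 residual degrees of freedom, and the contrast jejunum minus ileum was tested. Diet is the block: the pools of 1 diet share their mice, so the pairing comes from the design. A differing scale would shift all genes of an array, and centring and quantile normalization were among 25 alternatives tried. The script was tested on simulated data. Genes were named as the 15 largest and 15 smallest called differences whose brighter segment lay above the 75th percentile and whose probe sets ran 1 way, the members of 9 lists on transcription factors, digestion, transport and hormones, up to 4 called genes per direction and 2 uncalled of the other lists, and the 8 largest diet differences. A few others are named after their values were seen. The members and the 48 lists (1321 genes, 1166 on the array, 983 tested) were chosen with earlier results of these data known.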

Additional observations from a re-analysis of the deposited data

Results flagged for a closer look

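The median difference of the 21 genes tested on the brush border list, jejunum minus ileum, was 0.17 in the control pools and -0.26 in the yogurt pools. The diets thus lay on opposite sides of 0. The list holds peptidases called higher in ileum and sugar and lipid hydrolases called higher in jejunum, so its middle gene is not called. The difference between the diets was not tested.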

How the results depend on the processing

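The counts of 309 and 366 stayed within 1.5 times under the alternatives for arrays in the fit, floor, pseudocount, filter, normalization, probe set and variance model. A limit of 1.5-fold gave 742 genes higher in jejunum and 984 in ileum, and one of 4-fold 107 and 88. Leaving out 1 of the 4 arrays gave 297 to 321 and 355 to 401. Without diet as the replicate block the counts were 309 and 366, so the pairing changed no call. Of 404 named genes, 321 kept direction and side of the threshold in each refit in which they were tested, and none reversed there. The 1.5-fold and 4-fold limits are not in that count. Averaging probe sets gave 253 and 298 calls. Raising the floor to the 65th percentile gave 250 and 291. Fewer genes lie above that floor, and 21 named genes tested there lost their call, among them Hoxb5 (-0.79), Hoxb9 (-0.67), Insl5 (-0.47), Neurog3 (0.42), Mcpt1 (0.26) and Mcpt2 (0.67). The floor and the single array per pool limit what can be seen: differences below it have no size, and no setting supplies the spread between mice.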
